A study of Mus musculus with 8 samples.

Results

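Nuclear genes that encode factors of mitochondrial transcription, RNA stability and decay, and DNA replication were followed in CD8+ T cells with and without a guide against Elovl1. The members, 10 of the 56805 gene symbols in the table, were taken by symbol, for the known role of their proteins and with earlier results of these data known, and all 10 passed the filter on low counts that left 16006 genes. The cells were OT-I T cells, CD8+ cells of mice whose transgenic receptor recognises a peptide of chicken ovalbumin, and they carried a Cas9 knock-in in both groups. They were activated in culture, received a lentiviral vector with a non-targeting guide (sgNT, the control) or a guide against Elovl1 (sgElovl1), and were sorted for CD90.1, the vector's reporter. RNA was taken on day 7 of activation, 3 days after transduction, in 2 experiments with 2 mice per group each. The deposited table sums the 2 mice, so that each value below belongs to 1 of 4 columns (sgNT and sgElovl1 of experiments 1 and 2), and the spread between mice was not analysed here. The labels give no age or sex of the mice.

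Mitochondrial DNA is transcribed from both strands as long precursors by a polymerase of its own. POLRMT is that polymerase, TFAM packs the DNA and bends its promoters, TFB2M opens them and TEFM keeps the polymerase moving. TFB1M, a relative of TFB2M, methylates the small ribosomal RNA. LRPPRC and SLIRP form a complex that holds the mature mRNAs, while polynucleotide phosphorylase (Pnpt1) and the helicase SUV3 (Supv3l1) form the complex that degrades mitochondrial RNA. POLG is the catalytic subunit of the mitochondrial DNA polymerase. In activated T cells, mitochondrial gene expression and DNA copying are known to increase as the cells grow and divide.

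Promoters of 4 members are shown because these members took different courses between the experiments: Slirp and Supv3l1 were lower in experiment 2, Polrmt was higher and Pnpt1 was not past the threshold. Each line gives the 150 bases before the RefSeq transcript start, 5′ to 3′ on the gene's strand, from build GRCm38.p6. Capitals mark matches to 3 motifs searched on both strands, CCGGAAG (the core bound by ETS factors such as GABP), GGGCGG (Sp1) and GCGCANGCG (NRF1).
Slirp, chr12:87443746-87443895, plus strand: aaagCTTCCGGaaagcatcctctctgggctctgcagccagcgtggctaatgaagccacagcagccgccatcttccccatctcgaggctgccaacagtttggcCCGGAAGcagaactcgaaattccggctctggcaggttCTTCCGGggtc
Supv3l1, chr10:62449739-62449888, minus strand: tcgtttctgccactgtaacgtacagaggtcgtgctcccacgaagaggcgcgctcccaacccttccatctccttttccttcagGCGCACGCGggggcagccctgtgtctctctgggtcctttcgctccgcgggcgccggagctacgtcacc
Polrmt, chr10:79746582-79746731, minus strand: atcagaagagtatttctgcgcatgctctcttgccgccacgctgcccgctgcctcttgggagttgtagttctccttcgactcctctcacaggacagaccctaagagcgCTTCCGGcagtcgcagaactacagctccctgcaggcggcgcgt
Pnpt1, chr11:29130594-29130743, plus strand: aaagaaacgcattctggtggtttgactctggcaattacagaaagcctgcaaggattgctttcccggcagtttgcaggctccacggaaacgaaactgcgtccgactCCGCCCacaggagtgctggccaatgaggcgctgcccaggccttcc

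The search covered the whole 300-base window, 250 bases before to 50 after the start, of all 10 members. The ETS letters were in 5 windows (Tfam, Polrmt, Tefm, Slirp and Polg), against 8.86% of the 32851 promoter windows of the reference. The Slirp window held 3 of them. The NRF1 letters were in 3 windows (Polrmt, Tfb2m and Supv3l1), against 6.25% of all windows, and in Polrmt 2 overlapping matches lay across and just after the start, so that no whole match is among the bases printed; the first begins in the last bases of its line, which are left in lower case. The Sp1 letters were in 6 windows (Tfam, Tfb1m, Tfb2m, Lrpprc, Pnpt1 and Polg), against 35.7% of all windows. The E-box CACGTG, the core bound by MYC, was in none of the 10, against 7.15% of all windows. The member windows were 52.0% to 70.3% G or C, with a median of 60.3% against 52.7% for all windows, and these letters are rich in both bases. A match describes the letters only, and windows with the ETS letters belonged to members that were lower and to members that were higher in experiment 2.

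Total counts per column ranged from 49068952 to 63623476, so that 3 counts, the limit that a count of 0 allows, correspond to at most 0.0601 CPM (counts of a gene relative to the scaled column total, in the usual unit of expression levels). Elovl1, the targeted gene, was at 110 CPM in sgNT and 61.3 CPM in sgElovl1 of experiment 1, and at 93.5 and 55.8 CPM in experiment 2, a log2 fold change of -0.80 ± 0.07 (SE, edgeR adjusted p = 3.80e-28). All 10 markers of CD8+ T cells were tested and summed to 5621 to 6274 CPM, and none passed the threshold between sgElovl1 and sgNT in edgeR, which gave 0 of them an unadjusted p under 0.05, in DESeq2 or in limma-voom. Of the defining markers of other cells, Ms4a1, Ncr1, Klra8 and both Hbb genes had no count, Lyz2, Cd14 and Pax5 had at most 0.0361 CPM, and Cd4 at most 0.114 CPM. The 5 B cell markers summed to 7.58 to 9.79 CPM, mostly Cd79b, and the 7 myeloid markers to 9.41 to 15.0 CPM, mostly Cd68. The 4 NK cell markers summed to 154 to 256 CPM, nearly all of it Eomes, which CD8+ T cells also express, and the 4 CD4+ T cell markers to 30.7 to 37.5 CPM, mostly Zbtb7b.

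**Figure D1:**
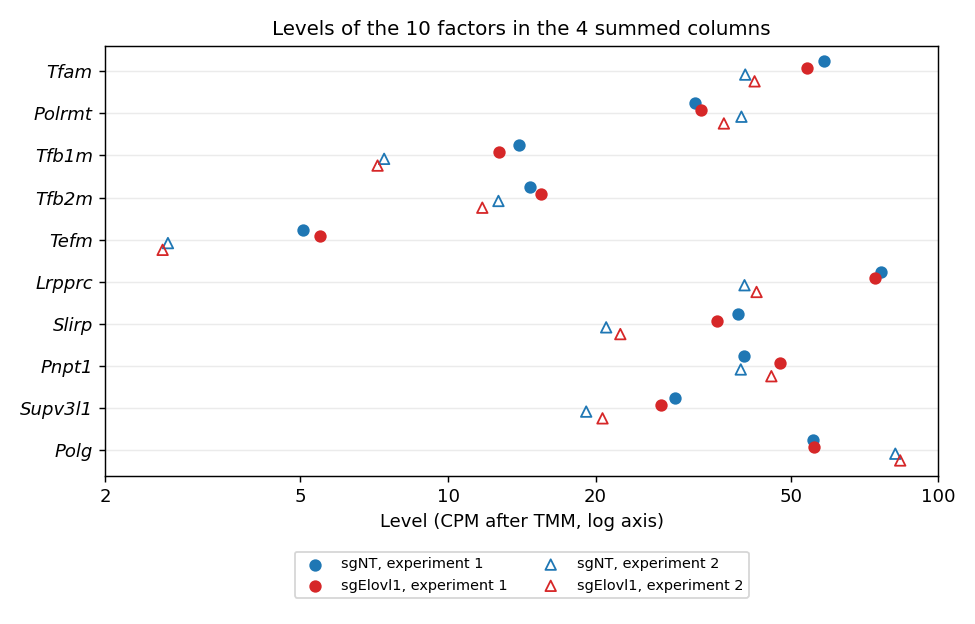
Level of each of the 10 factors in CPM (log axis) in the 4 summed columns, circles for experiment 1 and triangles for experiment 2, blue for sgNT and red for sgElovl1; each point is 1 column and has no error of its own. The 2 groups of an experiment lie close together, while 7 factors sit lower and Polrmt and Polg higher in experiment 2.

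The first comparison asked whether the guide against Elovl1 changed the RNA of these factors. None of the 10 passed the threshold in edgeR, against 1.2% of all genes tested (192 of 16006), and 1 of them, Pnpt1, had an unadjusted p under 0.05, as did 10.6% of all genes. DESeq2 and limma-voom also called 0 of the members, where DESeq2 gave an adjusted p for 7 of them by the Wald test and 6 by the likelihood-ratio test. The median log2 fold change of the members was -0.0057, beside -0.01 for all genes, and the median size regardless of sign was 0.03, beside 0.12 for all genes. All genes include many at lower levels than most members, and no median at matched levels was computed. In bulk RNA, a smaller share of cells that express a gene and less of its RNA per cell cannot be told apart.

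Of the transcription factors, Tfam was at 58.6 CPM in sgNT and 54.0 CPM in sgElovl1 of experiment 1, and at 40.4 and 42.2 CPM in experiment 2. It was thus lower with sgElovl1 in experiment 1 and higher in experiment 2, and its fold change over both was -0.03 (95% interval -0.17 to 0.11 on the log2 scale, edgeR adjusted p = 0.945). Polrmt was at 31.9 and 32.9 CPM in experiment 1 and at 39.7 and 36.5 CPM in experiment 2, sgNT first. Here too the direction differed between the experiments, and the fold change was -0.04 (-0.19 to 0.11, adjusted p = 0.935). Tfb2m, at 14.7 and 15.5 CPM and then 12.7 and 11.7 CPM, had a fold change of -0.02 (-0.23 to 0.20, adjusted p = 0.985). Tefm had the lowest counts of the members, 134 to 320 per column. It was at 5.05 and 5.47 CPM in experiment 1 and at 2.68 and 2.62 CPM in experiment 2, and its interval was the widest of the 10, -0.38 to 0.47 around 0.05 (adjusted p = 0.977). A change in Tefm within that interval was thus not excluded. The interval is no limit of detection, since a larger change could also miss the adjusted threshold. Tfb1m, the rRNA methyltransferase, was at 14.0 and 12.7 CPM and then 7.41 and 7.18 CPM. It was the one member with a lower value in sgElovl1 in both experiments, but the groups overlapped and the fold change of -0.09 (-0.34 to 0.16) had an adjusted p of 0.889.

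The mRNA-holding pair did not pass the threshold either. Lrpprc was at 76.5 CPM in sgNT and 74.4 CPM in sgElovl1 of experiment 1, and at 40.3 and 42.6 CPM in experiment 2, a fold change of 0.02 (-0.12 to 0.16, edgeR adjusted p = 0.970). Slirp was at 39.0 and 35.4 CPM and then at 21.0 and 22.5 CPM, a fold change of -0.03 (-0.19 to 0.13, adjusted p = 0.960). For both genes sgElovl1 was below sgNT in experiment 1 and above it in experiment 2.

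The decay pair differed in its values. Pnpt1, which is also known as an interferon-inducible gene, was at 40.1 CPM in sgNT and 47.7 CPM in sgElovl1 of experiment 1, and at 39.6 and 45.7 CPM in experiment 2. Both sgElovl1 columns lay above both sgNT columns, which held for Pnpt1 alone of the 10 members, while the 2 groups did not overlap, in one direction or the other, for 12.6% of all genes tested. The fold change was 0.23 ± 0.07 (SE, 95% interval 0.08 to 0.37), with 0.25 in experiment 1 and 0.21 in experiment 2. Its unadjusted p was 0.00195 and its edgeR adjusted p 0.103, which misses the threshold. The call depended on the scaling: the adjusted p was 0.0482 with upper-quartile factors and 0.0490 where scaling left out the mitochondrial genes and the 20 most counted ones, and it ranged from 0.0482 to 0.9999 over the 10 alternatives that used all 4 columns. Supv3l1, its partner, was at 29.0 and 27.2 CPM and then at 19.1 and 20.7 CPM, with a fold change of 0.0042 (-0.17 to 0.17, adjusted p = 0.993). The ratio of Pnpt1 to Supv3l1 counts was 1.38 in sgNT and 1.75 in sgElovl1 of experiment 1, and 2.07 and 2.21 in experiment 2.

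Polg was at 55.6 CPM in sgNT and 55.8 CPM in sgElovl1 of experiment 1, and at 81.8 and 83.7 CPM in experiment 2. The difference within each experiment was 0.0068 and 0.03 on the log2 scale, and the fold change over both was 0.02 (-0.11 to 0.15, edgeR adjusted p = 0.966).

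**Figure D2:**
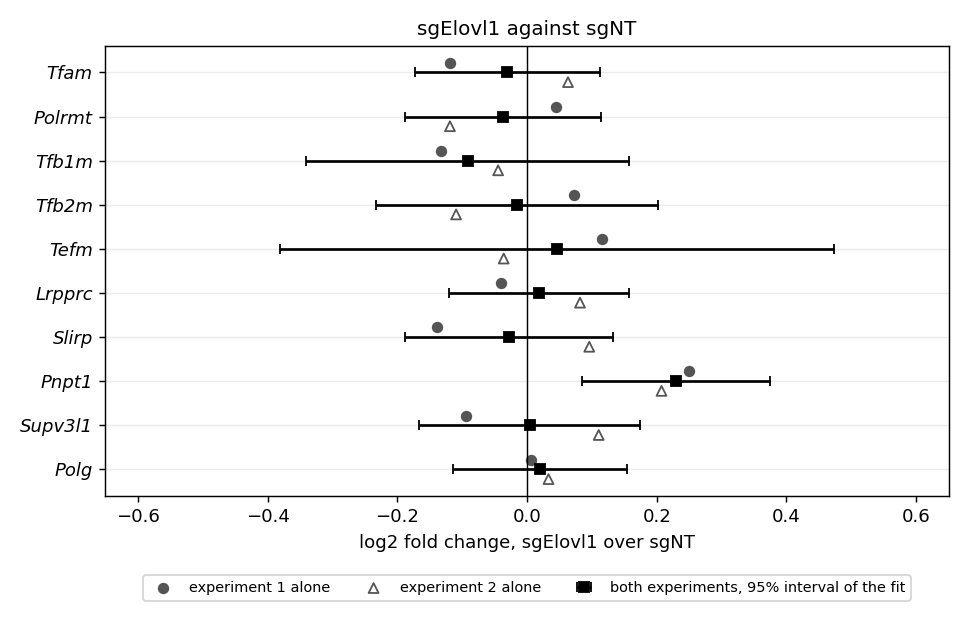
Log2 fold change of sgElovl1 over sgNT for each factor; squares with bars are the edgeR estimate over both experiments with its 95% interval, filled circles experiment 1 alone and open triangles experiment 2 alone. Pnpt1, at 0.23 with an interval of 0.08 to 0.37, is the one factor whose interval lies off 0, and in 7 of the 10 the experiments point in opposite directions.

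The RNAs on which these factors act took another course. Of the 13 mitochondrial mRNAs, 11 rose with sgElovl1 in edgeR, where 1.2% of all genes tested passed in either direction. The other mRNAs, mt-Nd3 and mt-Nd4l, did not pass the threshold (edgeR adjusted p = 0.163 and 0.0837). Whether the 11 also pass with DESeq2, limma-voom or the other alternatives was not examined. Over all genes, calls fell from 192 in edgeR to 26 with each DESeq2 test. The median log2 fold change over all 13 was 0.49. Together they took 6.82% of the counts in sgNT and 8.72% in sgElovl1 of experiment 1, and 9.59% and 13.5% in experiment 2. mt-Nd6, the only one read from the light strand, rose by 0.40 (edgeR adjusted p = 4.89e-07). The rRNAs mt-Rnr1 and mt-Rnr2 rose by 0.32 and 0.36 (adjusted p = 0.0115 and 0.00703). These rises were uneven between the experiments. For mt-Nd6 the log2 difference was 0.18 in experiment 1 and 0.61 in experiment 2. For mt-Rnr1 it was 0.026 and 0.61, and for mt-Rnr2 0.14 and 0.57, so that experiment 1 showed little change in mt-Rnr1. Of the mRNAs, 5, namely mt-Co2, mt-Co3, mt-Atp6, mt-Nd3 and mt-Nd4l, had a transcript of at least 99% identity over at least 90% of their length elsewhere in the annotation and were counted at 1.53 to 79.5 CPM. mt-Atp8 had no such transcript in the annotation and was as low, at 1.14 to 9.92 CPM, while the other 7 were at 115 to 66397 CPM. With sgElovl1 these 7 rose by 0.40 to 0.49 on the log2 scale. The 6 low mRNAs stood higher, at 0.57 to 0.99, and the median over all 13 includes them. The levels of these 6 low ones are uncertain. Some of the other 7 also had similar transcripts, shorter or less alike. For mt-Nd4 one had 100% identity over 63.6% of its length, and for mt-Co1 one had 97.6% over its whole length. Those of mt-Nd2 and mt-Nd5 covered 49.1% and 52.3% of the length. The part of similar copies in any of these counts was not tested. The summed mitochondrial mRNAs per Tfam count were 1168 in sgNT and 1584 in sgElovl1 of experiment 1, and 2332 and 3309 in experiment 2. Per Polrmt count the same ratio was 2150 and 2602, then 2374 and 3822. Per Lrpprc count it was 895 and 1149, then 2340 and 3278. In each of these ratios sgElovl1 lay above sgNT of the same experiment, and the same held per count of every other member. This restates the rise of the summed mRNAs beside members that changed little. It is no separate result about the named factors.

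The second comparison set experiment 2 against experiment 1, which the labels number without saying what differed between them. In edgeR 7 of the 10 members were lower in experiment 2, against 29.2% of all genes tested, and 2 were higher, against 26.4%, while Pnpt1 did not pass the threshold. Calls were common at the levels of the members, since 69.5% of the 7302 genes within their range of mean CPM passed in either direction. The median log2 difference of the members was -0.47, beside -0.0025 for all genes, and the median size was 0.53, beside 0.47 for all genes and 0.03 for the members in the comparison of the guides.

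The largest drops were in Tefm, Tfb1m, Lrpprc and Slirp. Tefm was lower by a log2 difference of -0.99 ± 0.22 (SE, edgeR adjusted p = 1.99e-05), with -0.91 within sgNT and -1.06 within sgElovl1. Tfb1m differed by -0.87 ± 0.13 (adjusted p = 5.32e-11), with -0.91 within sgNT and -0.83 within sgElovl1. Lrpprc differed by -0.87 ± 0.07 (adjusted p = 7.91e-33) and Slirp by -0.77 ± 0.08 (adjusted p = 4.31e-20). The partners therefore kept similar proportions: the ratio of Lrpprc to Slirp counts was 1.96, 2.10, 1.92 and 1.90 in sgNT and sgElovl1 of experiment 1 and sgNT and sgElovl1 of experiment 2.

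Supv3l1 differed by -0.50 ± 0.09 (edgeR adjusted p = 4.37e-08) and Tfam by -0.45 ± 0.07 (adjusted p = 3.51e-09). In both genes the drop was larger within sgNT, -0.60 and -0.54, than within sgElovl1, -0.40 and -0.36; the difference between these was not tested. Tfb2m differed by -0.31 ± 0.11 (adjusted p = 0.0116). Its call was lost with upper-quartile factors (adjusted p = 0.0769), with a minimum mean of 5 CPM (0.0674), with both DESeq2 tests (0.162 and 0.164), and without the sgElovl1 column of experiment 1 (0.0750), the sgNT column of experiment 2 (0.0840) or the sgElovl1 column of experiment 2 (0.229). The ratio of Tfb1m to Tfb2m counts was 0.947 and 0.822 in experiment 1 and 0.585 and 0.611 in experiment 2.

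Polg and Polrmt, the catalytic polymerases, were higher in experiment 2. Polg rose by 0.57 ± 0.07 (edgeR adjusted p = 7.64e-16), with 0.56 within sgNT and 0.58 within sgElovl1. Polg2, its accessory subunit, was at 8.43 and 8.72 CPM in experiment 1 and 12.4 and 13.01 CPM in experiment 2, a difference of 0.56 ± 0.13 (adjusted p = 1.99e-05), and the ratio of Polg to Polg2 counts stayed between 6.40 and 6.61 in the 4 columns. Twnk, the helicase of the same replication machinery, differed by -0.04 ± 0.10 (adjusted p = 0.758), and the ratio of Polg to Twnk counts went from 3.01 and 2.96 to 4.55 and 4.55. Polg2 and Twnk were picked after their values were seen, as partners of Polg. Polrmt rose by 0.23 ± 0.08 (adjusted p = 0.00505), but its call was lost with both DESeq2 tests (0.0710 and 0.0720) and without the sgNT column of experiment 1 (0.0600) or of experiment 2 (0.225). The ratio of Polrmt to Tefm counts, the polymerase and its elongation factor, was 6.31 and 6.01 in experiment 1 and 14.8 and 14.0 in experiment 2.

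Pnpt1 was the one member that did not pass the threshold between experiments, at -0.04 ± 0.07 (edgeR adjusted p = 0.676). Its 95% interval was -0.19 to 0.10, and its sign turned to 0.04 with upper-quartile factors and to 0.02 with a minimum mean of 5 CPM.

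**Figure D3:**
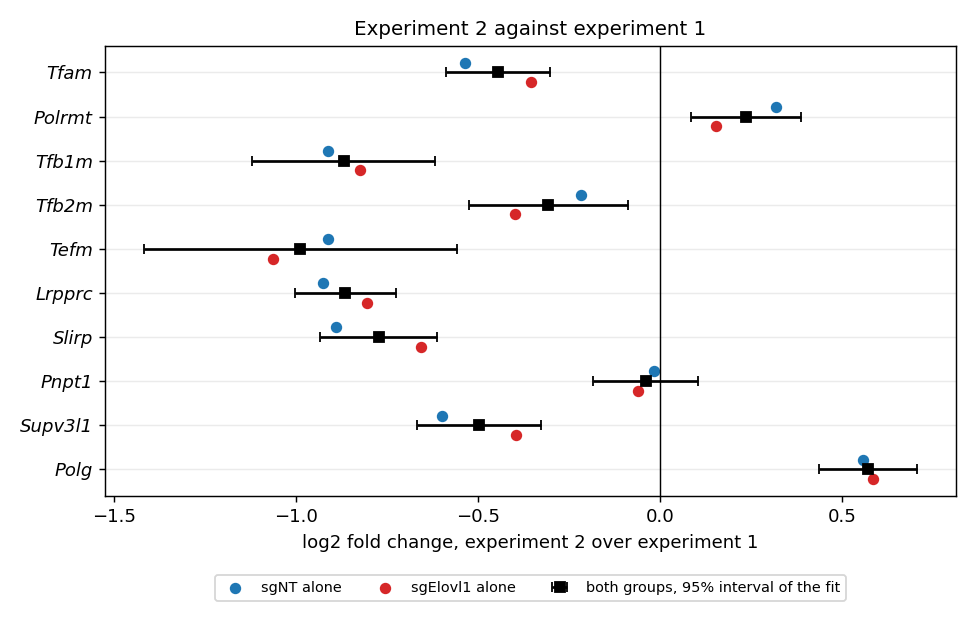
Log2 fold change of experiment 2 over experiment 1 for each factor; squares with bars are the edgeR estimate over both groups with its 95% interval, blue circles the sgNT columns alone and red circles the sgElovl1 columns alone. Tefm, Tfb1m, Lrpprc and Slirp lie between -0.99 and -0.77, the interval of Pnpt1 spans 0, and Polg lies at 0.57; the 2 groups point the same way in all 10.

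Other values differed between the experiments beside these. All 13 mitochondrial mRNAs were higher in experiment 2, against 26.4% of all genes tested, with a median log2 difference of 0.64. The rRNAs mt-Rnr1 and mt-Rnr2 were lower, by -0.65 and -0.30, as were 29.2% of all genes. Neat1, a long RNA kept in the nucleus, was at 116 and 126 CPM in experiment 1 and at 240 and 293 CPM in experiment 2, while Malat1 was at 82.8 to 95.9 CPM throughout. Of the 10 CD8+ T cell markers 6 were higher in experiment 2, against 26.4% of all genes, and 1 was lower, against 29.2%. Itgam, a myeloid marker, was at 0.25 and 0.40 CPM in experiment 1 and 2.28 and 2.69 CPM in experiment 2. Foxp3, the factor of regulatory T cells, was at 4.28 and 5.45 CPM and then at 8.67 and 10.6 CPM, a log2 difference of 0.98 (edgeR adjusted p = 1.87e-09), and at 0.32 between sgElovl1 and sgNT (adjusted p = 0.449). Eomes differed by -0.65 between experiments (adjusted p = 1.93e-23). No other tested marker of another cell type passed the threshold between experiments. The part of these differences in the members' values was not tested.

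Because counting ran over whole genes, levels were also set against exon length (all basic transcripts of GENCODE vM21, which is of another build than the counts), to compare members with each other. In sgNT of experiment 1, Lrpprc was highest at 17.4 CPM per kb, followed by Pnpt1 at 14.8, Tfam at 13.4 and Slirp at 12.6 CPM per kb. Tfb2m at 6.01 and Tefm at 3.86 CPM per kb were the lowest. In sgNT of experiment 2, Pnpt1 led at 14.6 CPM per kb, Polrmt and Polg followed at 10.6 and 10.4, Lrpprc stood at 9.16, and Tefm was again lowest at 2.05 CPM per kb. With no spread between mice at hand, close neighbours in this order, such as Polrmt and Polg, were not told apart, and the values also depend on which transcripts set the length and on intronic reads. Tefm was lowest in all 4 columns. Lengths ran from 1.31 kb for Tefm to 7.84 kb for Polg. No other annotated gene overlaps a member on its own strand. Genes on the opposite strand overlap Slirp, Polg, Supv3l1, Lrpprc, Tfb1m and Tfb2m, and the counting used strand. The widest shared stretch was in Slirp, where an Snw1 transcript covered 89.0% of the longest coding transcript. Snw1 had 3628 to 4974 counts per column, against 1050 to 2468 for Slirp. Its part in the Slirp counts was not tested. Tfb2m has a pseudogene elsewhere, Gm1818, with 99.3% identity over 1187 bases, which had 0 to 3 counts per column; its part in the Tfb2m counts was not tested.

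The factors were last set beside 72 other genes in 4 lists by role, all of which were tested. With sgElovl1, none of the 72 passed the threshold in edgeR, against 1.2% of all genes, and 8 had an unadjusted p under 0.05, as did 10.6% of all genes. Limma-voom called 0 of the 72, and DESeq2 called 0 of the 31 (Wald) and 27 (likelihood-ratio) to which it gave an adjusted p. Of the 20 genes of mtDNA replication and the nucleoid, the smallest p-values belonged to Mgme1, an exonuclease that trims replication ends, at -0.34 (edgeR adjusted p = 0.0943), and Rrm2b, a ribonucleotide reductase subunit, at -0.32 (adjusted p = 0.275). Of the 5 genes of the MTERF family, which bind mitochondrial DNA or rRNA, Mterf2 stood at 0.20 (adjusted p = 0.583) and Mterf3 at 0.05 (adjusted p = 0.924). Of the 22 genes of RNA cleavage, tails and granules, Pde12, which removes poly(A) tails, stood at -0.14 (adjusted p = 0.583) and Grsf1, a protein of RNA granules, at -0.11 (adjusted p = 0.615). Of the 25 genes of RNA modification, Nsun2 stood at -0.16 (adjusted p = 0.290) and Mettl17 at 0.18 (adjusted p = 0.306).

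Between the experiments, 36 of the 72 were lower in experiment 2, against 29.2% of all genes tested, and 12 were higher, against 26.4%, with a median log2 difference of -0.26. By list, 10 were lower and 3 higher among the replication genes, 1 and 3 in the MTERF family, 14 and 2 among the genes of cleavage, tails and granules, and 11 and 4 among those of modification. Nsun2 differed by -1.61, Pde12 by -0.90, Grsf1 by -0.52 and Mgme1 by -0.45, while Mterf2 differed by 0.63, Mettl17 by 0.29 and Mterf3 by 0.29.

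The nuclear regulators of mitochondrial biogenesis, transcription factors and coactivators that act on genes such as these, comprised 17 symbols. Of these 13 were tested, and Ppargc1a, Esrrb and Esrrg had no count in any column, which allows up to 0.0601 CPM. None of the 13 passed the threshold with sgElovl1 in edgeR, DESeq2 or limma-voom, and 5 had an unadjusted edgeR p under 0.05 (1.2% and 10.6% of all genes in edgeR). Myc stood at 0.18 (edgeR adjusted p = 0.168), with 135 CPM in sgNT and 143 CPM in sgElovl1 of experiment 1 and 98.3 and 120 CPM in experiment 2. Gabpa, the DNA-binding subunit of GABP, stood at -0.20 (adjusted p = 0.185), with 59.6 and 54.0 CPM and then 49.8 and 41.7 CPM. Between the experiments 8 of the 13 were lower in experiment 2 (29.2% of all genes) and 3 higher (26.4% of all genes), with Myc at -0.35 and Gabpa at -0.32.

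**Figure D4:**
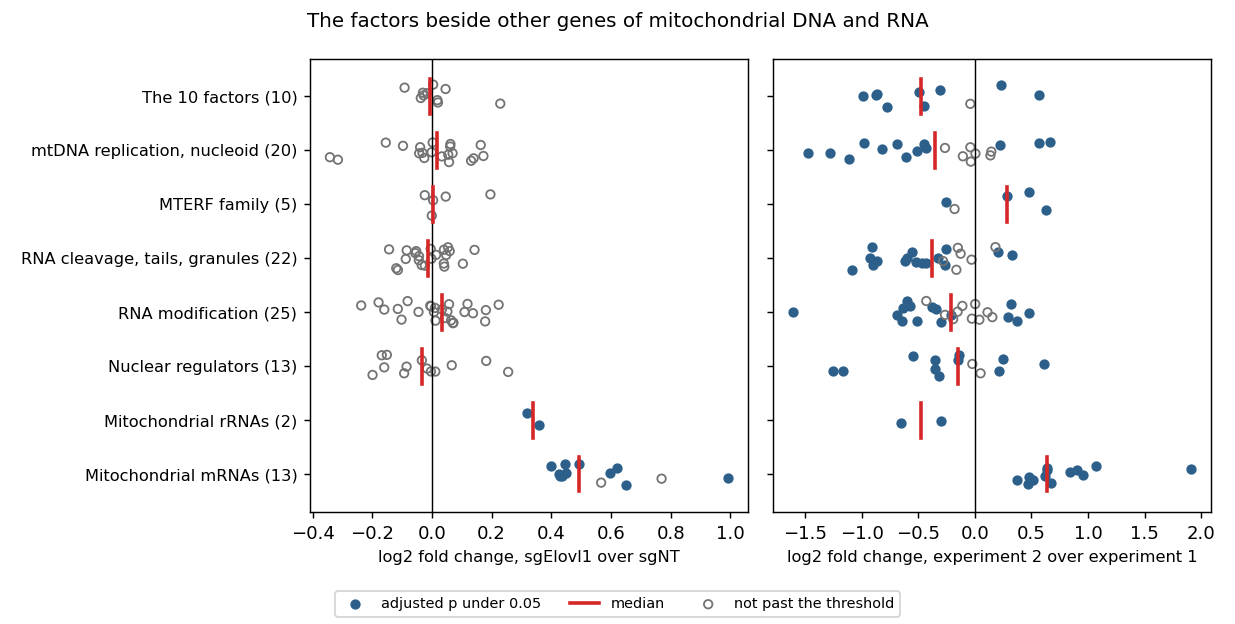
Log2 fold changes of single genes by list, sgElovl1 over sgNT on the left and experiment 2 over experiment 1 on the right; filled points passed an edgeR adjusted p of 0.05, open points did not, red bars are list medians and the number of genes tested is in brackets. On the left only mitochondrial mRNAs and rRNAs hold filled points. The mRNA median there is 0.49 and includes the low-counted mRNAs of uncertain level. On the right the 10 factors have a median of -0.47 and the mitochondrial mRNAs one of 0.64.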

How the data were processed

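By the study's methods and the processing notes of the submitters, paired reads of strand-specific mRNA libraries were aligned by the authors with STAR 2.7.10b to GRCm39 and counted with featureCounts 2.0.1 over whole genes, introns included, in reverse-stranded mode, and replicate mice of an experiment were then summed. The deposited values were these raw counts in 4 columns. The treatment of reads with several alignments is not given in the sources used here, and such reads could lower the counts of genes with near-identical copies.

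Counts were filtered with filterByExpr (16006 of 56805 symbols kept; 32132 had no count) and TMM-scaled. The main test was edgeR's (4.0.16, under R 4.3.3) quasi-likelihood F test in a model of group and experiment; p-values were adjusted by Benjamini-Hochberg across all genes tested, and 0.05 was the threshold. The design had assumed 8 libraries; with 4 columns 1 residual degree of freedom was left and the fitted prior degrees of freedom came out infinite. P-values and SEs therefore rest on a dispersion trend common to all genes (biological coefficient of variation 7.44%). Intervals are 95% normal intervals from the SE. CPM values use the TMM-scaled library total. The values of single experiments or groups are ratios of 2 columns. Limits from 3 counts cover counting error only. The scripts were tested on simulated data.

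The members and lists were chosen with earlier results of these data known. Named were all members, Elovl1, the mitochondrial RNAs and, from each other list, genes past the threshold with sgElovl1 (at most 4) or the 2 with the smallest p; others were chosen after their values were seen. The erythroid marker list is not reported here as a whole. Promoter windows came from RefSeq (GRCm38.p6; all 10 members matched by symbol), and exon lengths and overlaps from GENCODE vM21. Similar transcripts were sought with blastn 2.17.0 (at least 95% identity over 150 bases). Alternatives were other scalings (DESeq2 size factors, upper-quartile factors, mitochondrial and top 20 genes left out), no filter or a mean of 5 CPM, DESeq2 1.42.0, limma-voom (limma 3.58.1), no experiment term, removal of the shift along the experiment difference, and each column left out.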

Additional observations from a re-analysis of the deposited data

How the results depend on the processing

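No paired analysis was possible because each deposited column sums both mice of its group and experiment, so that the columns carry no replicate numbers; the groups were paired by experiment only, through the experiment term of the model. For sgElovl1 against sgNT, 192 genes passed. The count was 94 without a filter, 35 at a mean of 5 CPM, 26 with each DESeq2 test, 73 with the shift between experiments removed, 0 without the experiment term (19 at an unadjusted p under 0.05), and 0 to 6 with 1 column left out. The members called went from 0 to 1 (Pnpt1) with upper-quartile factors and with mitochondrial and top 20 genes left out, and stayed at 0 in the other alternatives.

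Fold changes near 0 turned sign. Tfb2m stood at 0.0032 with upper-quartile factors, 0.0069 with mitochondrial and top 20 genes left out, 0.0011 at a mean of 5 CPM and 0.012 with the shift removed. Supv3l1 stood at -0.0015 without a filter, -0.0081 with limma-voom and -0.0094 without the experiment term. With the shift removed, Tfam stood at 0.0094, Slirp at 0.041 and Polg at -0.030. Between experiments, Pnpt1 stood at 0.043 with upper-quartile factors and 0.021 at a mean of 5 CPM.

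With 1 column left out the fit held a single term, so that the sgElovl1 value also carried the difference between experiments. By this construction the members' median ran from -0.26 to 0.28, Tfam from -0.26 to 0.25, Polrmt from -0.20 to 0.15, Tfb1m from -0.57 to 0.42, Tfb2m from -0.22 to 0.20, Tefm from -0.56 to 0.59, Lrpprc from -0.45 to 0.54, Slirp from -0.41 to 0.46, Supv3l1 from -0.25 to 0.32 and Polg from -0.28 to 0.35. Pnpt1 ran from 0.20 to 0.28, and between experiments from -0.15 to 0.092.

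Between experiments, 9 members passed, and 7 to 9 did in every alternative. Tefm was not tested at a mean of 5 CPM. Calls lost were those of Tfb2m and Polrmt. Depth limits Tefm most.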
